A study of Mus musculus with 6 samples.

Results

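The laminin chain genes are described here in RNAseq data of J110 and SSM3 cells. The members are 9 genes chosen by name, the α chain genes Lama1 to Lama5, the β chain genes Lamb1, Lamb2 and Lamb3 and the γ chain gene Lamc1, out of 52636 genes in the table of counts. All 9 were found by their Ensembl identifiers, and the rule used no measured value. Laminins are large secreted glycoproteins of the basement membrane, the sheet of matrix on which epithelial cells sit. Each laminin is a trimer of 1 α, 1 β and 1 γ chain that is joined inside the cell before secretion, and it is named after the numbers of its chains. The α chain carries the main binding sites for integrins and dystroglycan on the cell surface, and in the mammary gland contact with laminin is known to support epithelial polarity and milk gene expression.

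The samples were 3 biological replicates of each of the cultured mouse mammary tumour cell lines J110 and SSM3. J110 cells came from transgenic mice that expressed AIB1 cDNA from the MMTV LTR, a promoter active mainly in mammary epithelium, and SSM3 cells came from mammary tumours of 129SvEv mice. Each group is a single cell line with no treatment named in the labels. The amount of serum and some of the supplements in the medium differed between the lines, as did the carbon dioxide level of the culture. Cell line and culture condition therefore cannot be told apart, and neither can fewer expressing cells and less RNA per cell. The libraries sampled the 3′ ends of polyadenylated RNA and held from 4200785 to 5416305 counts.

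J110 and SSM3 below stand for the libraries labelled so, and each direction rests on these labels. Ncoa3, the gene of AIB1, had 110, 106 and 102 counts in J110 and 181, 199 and 186 in SSM3, so it was not higher in the line with the transgene. Reads from the 3′ end may not count a cDNA transgene, whose 3′ end is not given in the sources used here, so these counts do not check the label. Of 5 epithelial markers, Krt8 and Krt18 were high in every library. Epcam had 2, 1 and 7 counts and Cdh1 had 21, 11 and 28 counts in J110, against SSM3 means of 507 and 1374 CPM. Krt19 averaged 18.6 CPM in J110 and 7412 CPM in SSM3. CPM is the count relative to the TMM-scaled total of the library. Of 5 fibroblast markers, Col1a2 and Lum had no count, and the summed level of all 5 ran from 1.54 to 1.98 CPM in J110 and from 0.398 to 1.91 CPM in SSM3, where the highest was replicate 2, with 9 counts of Pdgfra against 2 in each other replicate. The 5 endothelial markers summed to between 158 and 181 CPM in J110, nearly all of it Cdh5, with Tie1 and Emcn at 0, and to at most 0.425 CPM in SSM3, from 2 counts in replicate 2. The 5 markers of myoepithelial cells, which lie next to the basement membrane of the gland, summed to at most 2.37 CPM in J110 and 10.9 CPM in SSM3, and the 4 adipocyte markers to at most 0.223 CPM. Of 5 leukocyte markers, Itgam was at 0, and the sum, mostly from Cd68, ran from 14.8 to 22.2 CPM in J110, while Cd68 had 9, 5 and 6 counts in SSM3. The part of these other cell type markers in the results was not tested. Low counts of genes at 200 CPM or more in the other line were looked for in each library. The genes taken had at most 3 counts in each other replicate of its line. J110 replicate 3 had counts of 24 of 26 such genes and SSM3 replicate 2 of 18 of 18. Their level there was 0.25% and 0.363% of that in the line that expresses them, against at most 0.096% in any other library. A fold change printed here is also given without J110 replicate 3 and SSM3 replicate 2 where it moved by over 1.5 times or lost its call.

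The sequences before the starts of the β chain genes are shown first, since these 3 genes fill the same position in the trimer and moved in opposite directions between the lines. RefSeq starts were held for 5 of the 9 members (Lama2, Lama5, Lamb1, Lamb2 and Lamb3). Each line gives the longest stretch, of the 250 bases before the start, that lies in no annotated exon, in the GRCm38.p6 build and 5′ to 3′ on the strand of the gene, with matches to the GC box (GGGCGG) on either strand in capitals. For Lamb3 the upstream one of 2 RefSeq starts is shown.
Lamb1, chr12:31265043-31265233, forward strand: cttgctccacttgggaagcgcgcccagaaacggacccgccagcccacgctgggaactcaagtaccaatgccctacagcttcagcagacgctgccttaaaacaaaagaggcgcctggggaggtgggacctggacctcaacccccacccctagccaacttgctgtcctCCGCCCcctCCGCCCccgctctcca
Lamb2, chr9:108479612-108479735, forward strand: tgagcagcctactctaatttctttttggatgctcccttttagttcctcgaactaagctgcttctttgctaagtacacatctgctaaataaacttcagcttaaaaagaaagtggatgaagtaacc
Lamb3, chr1:193301744-193301992, forward strand: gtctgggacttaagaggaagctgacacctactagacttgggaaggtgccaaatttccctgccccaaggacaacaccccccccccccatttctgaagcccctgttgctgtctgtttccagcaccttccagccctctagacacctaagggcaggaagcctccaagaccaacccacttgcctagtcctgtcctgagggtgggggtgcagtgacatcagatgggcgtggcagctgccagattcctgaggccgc
In the 250 bases before these 3 starts Lamb1 had 2 matches to the GC box, and Lamb2 and Lamb3 had none. Over all 32851 RefSeq windows of 250 bases, 32.7% had a match. Neither the TATA box (TATAAA), the AP-1 motif (TGANTCA), the Snail and Zeb type of E-box (CAGGTG) nor the estrogen response element consensus was found on either strand of the same 250 bases, against 12.4%, 6.75%, 17.2% and 0.0639% of all windows. The 250 bases before the other start of Lamb3 held 1 match to the E-box, outside the longest stretch free of exons. The 250 bases before the start of Lama5 held 4 matches to the GC box and 2 to the E-box. A match is a description of the letters only, and matches of different motifs shared 0 bases in the stretches free of exons.

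Of the 9 members, 6 passed the filter on low counts and were tested between SSM3 and J110, and Lama1, Lama2 and Lama4 were too low to be tested. Lamb1, Lama3, Lamb3, Lamc1 and Lama5 were lower in SSM3, and Lamb2 was higher. The 9 members together came to 739 ± 14.0 CPM in J110, against 290 ± 7.75 CPM in SSM3 (SD, n = 3 each). In edgeR's quasi-likelihood test across 12284 genes, 6 of the 6 tested members had an adjusted p below 0.05. Of these, 5 were lower and 1 higher in SSM3, and the libraries of the lines did not overlap for any of the 6. Among the 5 lower, Lama3 passed the filter only through J110, so the filter fixed its direction. Among all genes tested 77.9% passed the same threshold, 39.2% as lower and 38.6% as higher in SSM3, and for 79.6% the lines did not overlap, so passing the test does not set the members apart. The median log2 fold change, SSM3 against J110, was -1.54 over the 6 tested members, Lama3 included, and -0.014 over all genes tested. With library size only, without TMM scaling, the median of all genes moved to 0.161, and the members kept their directions.

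**Figure D1:**
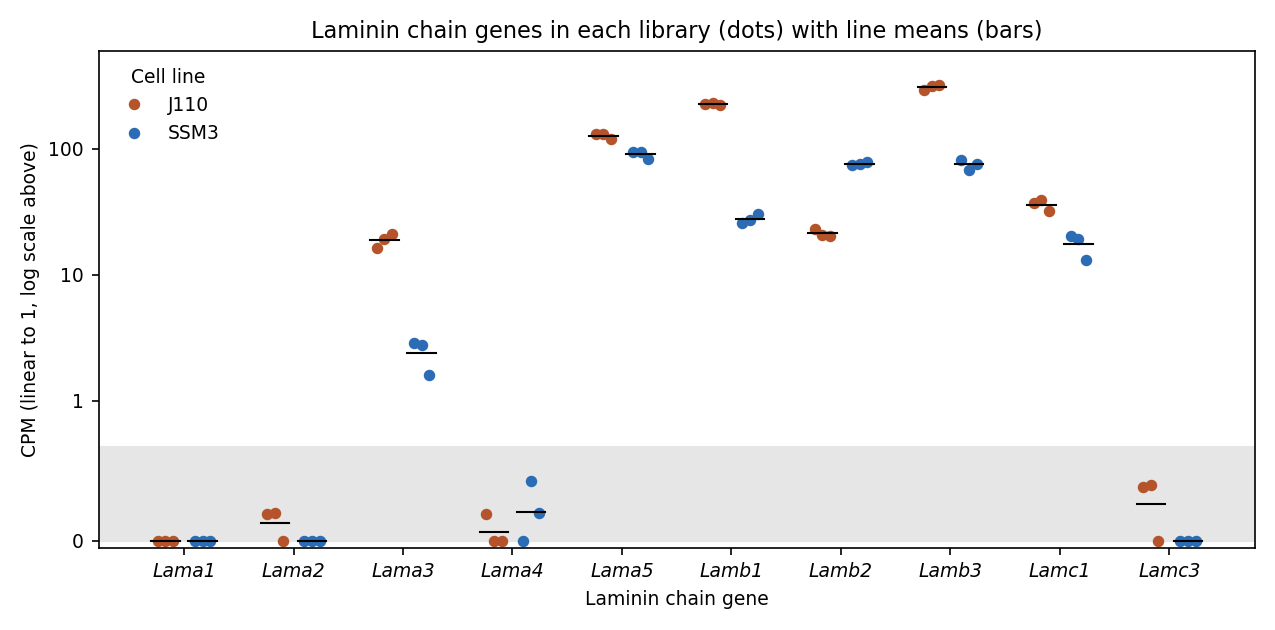
CPM of the 9 members and of the γ chain gene Lamc3 in each library (dots), with the mean of each line (black bars), on an axis that is linear up to 1 CPM and logarithmic above. The grey band marks up to 3 counts in a library, which is at most 0.668 CPM, where Lama1, Lama2, Lama4 and Lamc3 lie in both lines, while Lamb1 and Lamb2 lie in opposite orders.

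Among the α chain genes, Lama5 was the most abundant in both lines. Lama5 (ENSMUSG00000015647, chromosome 2 of mm10 from 180176373 to 180225859, reverse strand), the α chain of most adult epithelial basement membranes, had 683, 663 and 573 counts in J110 and 420, 442 and 420 in SSM3. In CPM these were 132, 131 and 120 in J110 and 93.5, 93.9 and 83.6 in SSM3, so that the lowest J110 library lay above the highest SSM3 library. With library size only, the log2 fold change in edgeR was -0.32 (adjusted p = 0.00401). With TMM scaling, the quasi-likelihood test of edgeR put it at -0.50 ± 0.085 (SE, adjusted p = 5.40e-05), a level 1.41-fold lower in SSM3. This was the smallest change among the tested members, and it did not pass a test for changes beyond 2-fold (glmTreat, adjusted p = 1).

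Lama3 (ENSMUSG00000024421, chromosome 18 from 12333819 to 12583013, forward strand) encodes the α chain of laminin-332, which anchors epithelial cells through hemidesmosomes. It had 85, 98 and 101 counts in J110 and 13, 13 and 8 in SSM3, or 18.9 ± 2.37 and 2.42 ± 0.717 CPM (SD, n = 3 each). Every J110 library lay above every SSM3 library. The quasi-likelihood test of edgeR put the log2 fold change at -2.97 ± 0.24 (SE, adjusted p = 9.68e-09), and leaving out each library in turn gave values from -3.11 to -2.73. Lama3 passed the filter only through J110, since SSM3 replicate 3, with 8 counts, lay below the filter level of 2 CPM. The filter thus fixed the direction of Lama3. At the level of other-line counts measured in SSM3 replicate 2, the J110 level of Lama3 would give 0.324 counts there, where 13 were counted. An antisense gene, Gm29200, shares 197 exon bases with Lama3 and had no count.

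Lama1, the α chain of the laminin of early embryos and of tumour-derived matrix, had no count in any library, which allows up to 3 counts or between 0.578 and 0.668 CPM per library, for counting error only. Lama2, the α chain of muscle and nerve, had 1, 1 and 0 counts in J110 and none in SSM3. Lama4, found in the basement membranes of vessels and fat, had 1, 0 and 0 counts in J110 and 0, 2 and 1 in SSM3. Both genes were at or below the limit in both lines, so no fold change is given. In the summed CPM of the 5 α chain genes, Lama5 took 86.9 ± 1.85% in J110 and 97.2 ± 0.619% in SSM3 (SD, n = 3 each), and Lama3 took most of the rest, up to 15.0% in J110 and up to 3.00% in SSM3.

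The β chain genes moved in opposite directions. Lamb1 (ENSMUSG00000002900, chromosome 12 from 31265234 to 31329644, forward strand) encodes the β chain that most laminins of embryos and many adult tissues share. It had 1171, 1159 and 1062 counts in J110 and 115, 129 and 153 in SSM3, or 226 ± 3.82 and 27.8 ± 2.45 CPM (SD, n = 3 each). The lines lay far apart, and edgeR put the log2 fold change at -3.02 ± 0.092 (SE, adjusted p = 2.86e-14), 8.09-fold lower in SSM3. This fall and that of Lama3 differed by less than the standard error of Lama3, and 8.1% of all genes tested had a lower log2 fold change than Lamb1.

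Lamb2 (ENSMUSG00000052911, chromosome 9 from 108479736 to 108490530, forward strand) encodes the β chain that can take the place of β1 in the trimer, known from the kidney glomerulus and the neuromuscular junction. It had 120, 104 and 98 counts in J110 and 334, 356 and 393 in SSM3, or 21.4 ± 1.52 and 76.1 ± 1.95 CPM (SD, n = 3 each). It was the only tested member that rose, with every SSM3 library above every J110 library and its log2 fold change in edgeR at 1.83 ± 0.10 (SE, adjusted p = 6.61e-11). Leaving out each library in turn gave values from 1.79 to 1.88.

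Lamb3 (ENSMUSG00000026639, chromosome 1 from 193207699 to 193343878, forward strand), the β chain of laminin-332, was the most abundant member in J110. Its levels were 294, 315 and 320 CPM in the J110 libraries, and the SSM3 libraries had 81.3, 68.0 and 76.0 CPM. The lines did not overlap, and edgeR put the log2 fold change at -2.04 ± 0.084 (SE, adjusted p = 1.41e-12). Without J110 replicate 3 and SSM3 replicate 2 it was -1.95.

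The makeup of the β chain counts differed between the lines. Lamb2 took 3.85 ± 0.360% of the summed CPM of the 3 β chain genes in J110 and 42.5 ± 1.60% in SSM3 (SD, n = 3 each). Lamb1 took 40.5 ± 1.08% and 15.5 ± 1.25%, and Lamb3 took 55.6 ± 1.40% and 41.9 ± 2.63% (SD, n = 3 each). Lamb2 thus went from the least to a share like that of Lamb3, whose libraries it overlapped in CPM in SSM3. Per kb of exon the shares of Lamb2 were 4.82 ± 0.468% in J110 and 46.9 ± 1.84% in SSM3 (SD, n = 3 each).

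**Figure D2:**
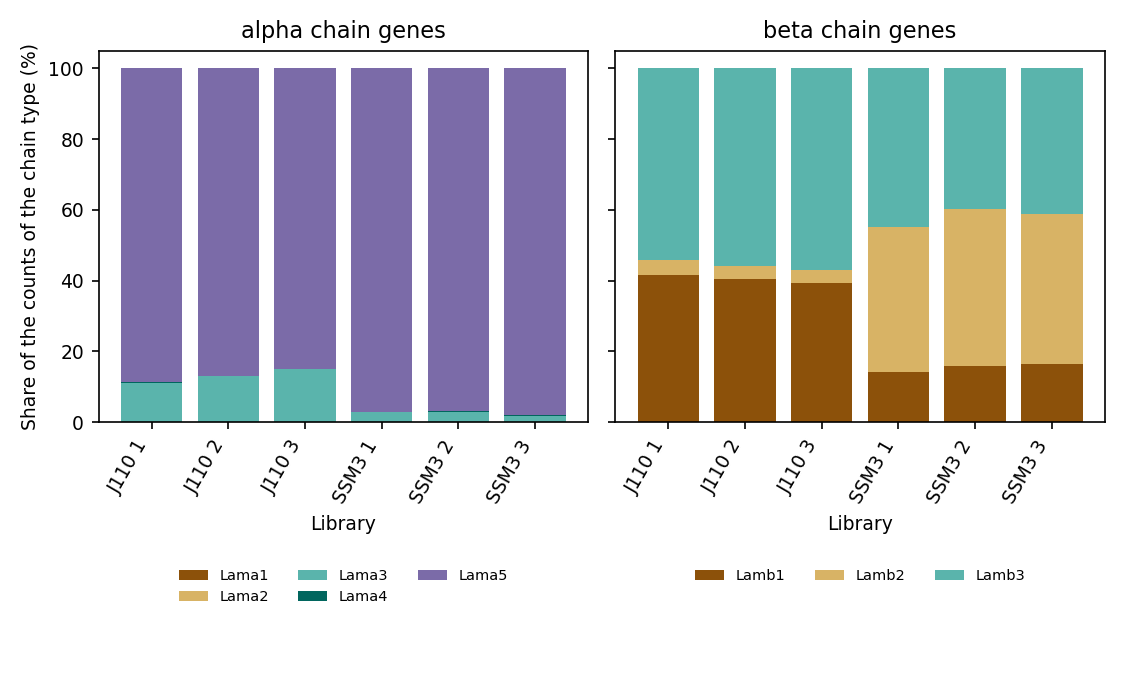
Share of each gene in the summed CPM of its chain type (%, vertical axis), for each library (horizontal axis, line and replicate number) and for the α and β chain genes in turn. Lamb2 takes from 3.64% to 4.26% of the β chain counts in J110 and from 41.0% to 44.2% in SSM3, while Lama5 holds the largest share of the α chain counts in all 6 libraries.

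Of the γ chain genes, Lamc1 is the member, and Lamc3 is given beside it. Lamc1 (ENSMUSG00000026478, chromosome 1 from 153218922 to 153332786, reverse strand) encodes the γ chain shared by nearly all laminins other than laminin-332. It had 192, 197 and 154 counts in J110 and 92, 91 and 66 in SSM3, or 37.0, 39.0 and 32.1 CPM against 20.5, 19.3 and 13.1 CPM. The lowest J110 library was above the highest SSM3 library, and edgeR put the log2 fold change at -1.04 ± 0.16 (SE, adjusted p = 1.58e-05). Leaving out SSM3 replicate 3, the lowest library, gave -0.86, and the test for changes beyond 2-fold gave an adjusted p of 0.439. Lamc3 had 2, 2 and 0 counts in J110 and none in SSM3.

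**Figure D3:**
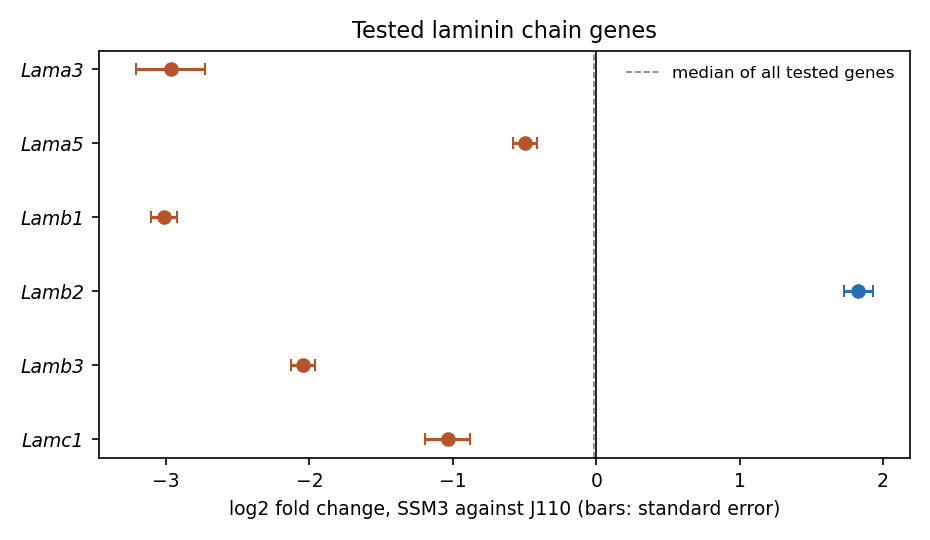
log2 fold change, SSM3 against J110 (horizontal axis), of the 6 tested members (vertical axis), with bars of 1 standard error. Lamb1 and Lama3 lie near -3, Lamb2 is the only member above 0, and the dashed line marks the median of all genes tested, -0.014.

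Ratios between chain genes within a library do not depend on how the libraries are scaled, and 6 were compared. The ratio of Lamb2 to Lamb1 counts was 0.102, 0.0897 and 0.0923 in J110 and 2.90, 2.76 and 2.57 in SSM3. The order of these β chains was therefore opposite in the lines, and the log2 ratio differed by 4.86 (p = 0.1 in a two-sided exact permutation test, which is the lowest p that 3 libraries against 3 can reach, and 0.1 adjusted over the 6 ratios). Between 2 chains of laminin-332, the ratio of Lama3 to Lamb3 was 0.0611 ± 0.00507 in J110 and lower in SSM3, at 0.0324 ± 0.0102 (SD, n = 3 each), a log2 difference of -0.97 with the same exact p of 0.1. Between the chains of laminin-511, Lama5 to Lamc1 went from 3.55 ± 0.178 to 5.26 ± 0.965 and Lamb1 to Lamc1 from 6.29 ± 0.534 to 1.66 ± 0.574 (SD, n = 3 each). The lines did not overlap in any of the 6 ratios, and no exact p could fall below 0.1 at this number of libraries.

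The order of the levels also differed. In J110 the order in CPM was Lamb3, Lamb1, Lama5, Lamc1, Lamb2 and Lama3, and of these neighbours only Lamb2 and Lama3 overlapped. In SSM3 it was Lama5, Lamb2, Lamb3, Lamb1, Lamc1 and Lama3, where only Lamb2 and Lamb3 overlapped. Reads of a 3′ library are taken from the end of each transcript and do not grow with its length, so CPM was kept as the scale. Per kb of exon, Lama5 came after Lamb2 and Lamb3 in SSM3, and the order in J110 was the same but without the overlap of Lamb2 and Lama3. Lama3 was the lowest of the 6 tested members in both lines on either scale, at 1.76 ± 0.221 CPM per kb in J110 and 0.225 ± 0.0667 CPM per kb in SSM3 (SD, n = 3 each).

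Of 12 genes for receptors that bind laminin, 9 were tested, and 7 fell and 2 rose in SSM3, with a median log2 fold change of -0.69. Of those that fell, Itga2 and Sdc2 passed the filter only through J110. Here and in the lists that follow, the counts stand against 39.2% of all genes tested that fell and 38.6% that rose. Itga6 and Itgb1 encode the integrin subunits α6 and β1 and were the most abundant of the list. Itga6 averaged 572 ± 16.6 CPM in J110 against 345 ± 7.25 CPM in SSM3, and Itgb1 449 ± 30.1 and 325 ± 9.89 CPM (SD, n = 3 each), and their log2 fold changes were -0.73 and -0.47. Itga2, a subunit of a receptor for collagen and laminin, had 1014 counts over the 3 J110 libraries and 3 over the 3 SSM3 libraries, a ratio of 320 (95% Clopper-Pearson limits 109 and 1553, for counting error only, which replicates of a line exceeded). Sdc4, a cell surface heparan sulfate proteoglycan, rose most, from 80.2 ± 8.55 to 143 ± 5.91 CPM (SD, n = 3 each). Dag1, which encodes dystroglycan and was named after its values were seen, was the other gene that rose, with its log2 fold change in edgeR at 0.61 ± 0.084 (SE, adjusted p = 4.60e-06).

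Dystroglycan binds laminin through a sugar chain, and 12 of the 13 listed genes for building that chain were tested. Of these, 8 rose and 3 fell in SSM3, and the median log2 fold change was 0.65. Of those that rose, 1 passed the filter only through SSM3. Pomgnt1, which acts early in the pathway, rose from 30.4 ± 1.13 to 70.2 ± 2.09 CPM, and Rxylt1 had the largest fall, from 40.1 ± 1.72 to 7.12 ± 2.32 CPM (SD, n = 3 each). Without J110 replicate 3 and SSM3 replicate 2, 7 rose and 3 fell, since Pomt1 no longer passed (adjusted p = 0.0968). DESeq2 on all 6 libraries also called 7 as higher and 3 as lower.

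Hemidesmosomes join laminin-332 to keratin filaments. Of 4 listed genes 3 were tested, and Plec, the linker plectin, fell from 354 ± 17.9 to 234 ± 8.95 CPM while Cd151, a tetraspanin that partners laminin-binding integrins, rose from 179 ± 7.23 to 247 ± 4.81 CPM (SD, n = 3 each). Dst was at 144 ± 2.49 and 138 ± 14.9 CPM (SD, n = 3 each) and did not pass the test. Col17a1, the transmembrane collagen of the hemidesmosome, was at most at 2 counts in any library.

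Among other basement membrane genes, 11 of 26 were tested, and 10 fell and 1 rose in SSM3. Col4a1, Col4a2, Col18a1, Col7a1, Fbln2, Smoc2 and Sparc passed the filter only through J110, where they were high, so for them the filter fixed the direction, and nothing is read from this count. Summed over the list, J110 had 2276 ± 29.8 CPM and SSM3 had 229 ± 9.52 CPM (SD, n = 3 each). Fbln2, a laminin-binding fibulin, averaged 706 CPM in J110 and had 1, 15 and 2 counts in SSM3. Its log2 fold change of -9.10 was -11.01 without J110 replicate 3 and SSM3 replicate 2. Col18a1, a collagen with heparan sulfate chains, went from 355 ± 11.9 to 0.573 ± 0.647 CPM (SD, n = 3 each), and its log2 fold change of -9.24 was -10.57 without those libraries. Smoc2, a matrix protein related to Sparc, had 1833 counts in J110 and 1 in SSM3, a ratio of 1734 (95% Clopper-Pearson limits 311 and 68534, again for counting error only). That 1 count was in SSM3 replicate 2, and the fitted log2 fold change of Smoc2 went from -10.31 to -12.21 without J110 replicate 3 and SSM3 replicate 2. Agrn, which encodes agrin, a proteoglycan that binds the laminin coiled coil, was the 1 gene that rose, from 41.8 ± 5.10 to 145 ± 5.60 CPM (SD, n = 3 each). Nid1 and Nid2, the nidogens that link laminin to type IV collagen, had at most 1 count in any library.

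Of 5 genes for proteases that process laminin, 2 were tested. Bmp1, which trims laminin-332, fell from 57.9 ± 0.956 to 18.6 ± 1.23 CPM, and Mmp14, a membrane protease that cleaves laminin chains, rose from 180 ± 8.65 to 571 ± 9.56 CPM (SD, n = 3 each). Tll1 and Tll2 had no count in any library.

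**Figure D4:**
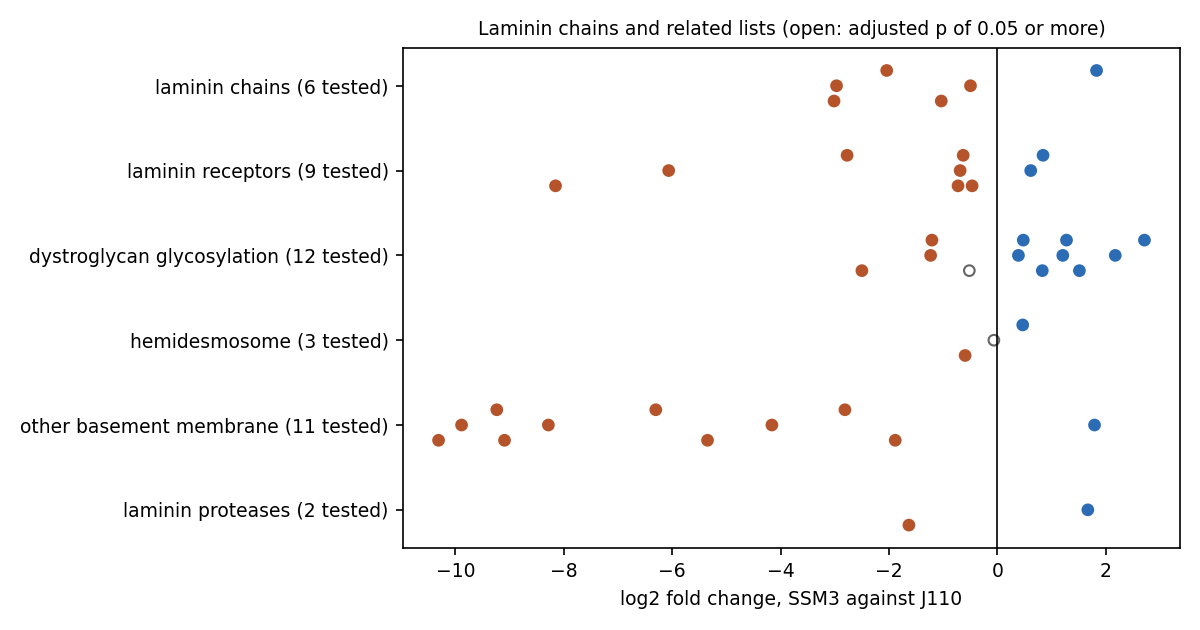
log2 fold change, SSM3 against J110 (horizontal axis), of each tested gene in the laminin chain list and 5 related lists (vertical axis, with the number tested). Brown points fell, blue points rose and open points had an adjusted p of 0.05 or more. The points furthest to the left, among the other basement membrane genes, are genes near 0 in SSM3 that passed the filter on low counts only through J110.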

How the data were processed

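Libraries of RNA 3′ ends came from 3 biological replicates of each cell line. The authors trimmed the reads with cutadapt (version 2.1), mapped them to mm10 with HISAT2 (version 2.0.4), counted them with featureCounts and deposited raw counts per gene, with no normalisation. The strand setting is not given in the sources used here. Symbols, exons and coordinates came from GENCODE for GRCm38, and start sequences from RefSeq.

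After the filterByExpr filter and TMM scaling, edgeR (version 4.0.16, R 4.3.3) fitted all genes to the cell line by quasi-likelihood, with Benjamini-Hochberg adjustment over all 12284 genes tested and a threshold of 0.05. The biological coefficient of variation was 8.3%. A standard error is the size of the log2 fold change over the square root of F. The test was checked on simulated counts in which few genes differed, so the check does not cover a comparison where most genes pass. Replicates of a line differed by more than sampling noise (chi-square per degree of freedom from 2.29 to 6.01). Alternatives were DESeq2 (version 1.42.0), limma-voom (limma 3.58.1), glmTreat, other scalings, filters and depths, a replicate block and leaving out libraries.

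The members and lists were chosen with earlier results of these data known. Named in each list are the 2 most abundant tested genes and the largest rise and fall. Dag1, Sdc2, Pomt1, Dst, Col4a1, Col4a2, Col7a1, Sparc, Col17a1, Nid1, Nid2, Tll1 and Tll2 fall outside that rule and were chosen after seeing their values. Some genes that the rule names, and one detail of the origin of a line, are not reported here.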

Additional observations from a re-analysis of the deposited data

How the results depend on the processing

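Over 18 alternatives, the 6 tested members gave 107 log2 fold changes, none with another sign, and 105 stayed on the same side of the threshold. Lama3 had no value under a filter of at least 10 counts in every library. The test for changes beyond 2-fold (glmTreat) lost Lama5 (log2 fold change -0.50, not called) and Lamc1 (-1.04, adjusted p = 0.439) and took the number of all genes called from 9566 to 4272. That test asks for a larger change by construction. Across leaving out each library in turn, 6 of 6 tested members passed, and the number of all genes called ran from 9275 to 9572.

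The replicate numbers showed no strong pairing of the samples. Same-numbered libraries deviated together with correlations of 0.012, 0.015 and 0.027 across genes, and each library correlated best with its own number. Whether the numbers pair the samples cannot be decided from 3 libraries per line. With the replicate block, 6 members passed as before, and 9481 of all genes did.

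Dividing by exon length moved the share of Lamb1 among β chain counts to 31.1% in J110 and 10.5% in SSM3, of Lamb2 to 4.82% and 46.9%, and of Lamb3 to 64.0% in J110, which follows from the lengths. The β shares and the ratios were themselves chosen after seeing the data, as were the per-length values of these shares and the left-out-library values of both. The lists without J110 replicate 3 and SSM3 replicate 2 were also an alternative chosen after seeing the data. When genes with a single count were also tested, Lama2 and Lama4 had adjusted p values of 0.327 and 0.478 (edgeR). At this depth Lama1, Lama2 and Lama4 did not exceed the limit of 3 counts in any library.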

Other observations

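Genes with profiles most like those of Lamb2, which rose, and of Lamb1, with the lowest log2 fold change, were listed over the 6 libraries. Without SSM3 replicate 1, Lama3 fell more than Lamb1 (-3.11 against -2.96). The measure was the root mean square distance of mean-centred log2 CPM among 9062 other genes with at least 10 CPM on average. The libraries fall into 2 lines, so a like profile mostly means a like fold change, and it says nothing of shared control. Nearest to Lamb2 were Trim25, at a distance of 0.034, Agrn at 0.045 and Smarcd2 at 0.053. Agrn encodes agrin, another basement membrane protein, and rose with a log2 fold change of 1.79. Nearest to Lamb1 were Cav1, which encodes the caveolae protein caveolin 1, at 0.076, and Akap2 and Pakap at 0.097 and 0.098. Akap2 and Pakap were both at 183 CPM in J110 and at 25.3 and 25.4 CPM in SSM3, and they may share reads, so they count as 1 neighbour at most.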
